A study of Arabidopsis thaliana with 12 samples.

Results

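The 12 ATH1 arrays of this Arabidopsis thaliana study were titled replicate 1, 2 or 3, and each of the 3 numbers held exactly 1 array of every genotype and treatment group. This description sets the 4 arrays of replicate 1, the 4 of replicate 2 and the 4 of replicate 3 against each other, over all 12 arrays of the series, after the mean of each group was removed. The groups were rop10-1 seedlings given 1 µM abscisic acid (ABA), Ws seedlings given 1 µM ABA, rop10-1 seedlings given the solvent DMSO as mock, and Ws seedlings given the mock, with 3 arrays each. rop10-1 is a mutant of ROP10, a plant small GTPase, and Ws (Wassilewskija) is the wild type it was compared with. All seedlings had grown for 7 days in shaken liquid MS medium with 3% sucrose at 150 rpm, and the ABA or mock treatment lasted 4 hours. About 100 mg of whole seedlings went into each RNA extraction, and about 10 µg of total RNA was labelled. The design text calls the replicates biological, and no label used here says what the arrays of a number shared, such as a culture, a day or a labelling run. The p-values below measure the spread between these arrays only.

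As background, transcripts from different sources respond at different speeds and to different surroundings. Touch and wounding genes such as the zinc finger gene STZ are switched on within minutes, core hypoxia genes are switched on when oxygen is short, and defensin genes such as PDF1.2 answer to jasmonate and ethylene. Chloroplasts and mitochondria carry their own genomes, which encode subunits of the photosystems, of Rubisco and of the respiratory chain beside those made from nuclear genes. RNA of whole seedlings mixes all organs, so a change in the share of a tissue and a change in RNA per cell cannot be told apart.

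The deposited signals are on a linear scale. Trimming 2% at each end gave means of 500.04 to 500.048, and the array medians ranged over 180.15 to 203.3. The number of arrays limits the precision. Tissue markers were present throughout. RCA, the Rubisco activase of leaves, had signals of 11907 to 14335, and PYK10, a beta-glucosidase abundant in roots, had 12433 to 16186. Of 16 technical measures compared between the numbers, 2 had an exact permutation p under 0.05 and 0 passed after Benjamini-Hochberg adjustment. These were a GAPDH 3'/5' log2 ratio, which averaged -0.356 ± 0.09 in replicate 1, -0.517 ± 0.042 in replicate 2 and -0.469 ± 0.05 in replicate 3 (SD, n = 4 each, exact permutation p = 0.0139, adjusted 0.222), and the log2 signal of 25S ribosomal RNA. That signal averaged 7.343 ± 0.259 in replicate 3, against 6.417 ± 0.195 in replicate 1 and 6.366 ± 0.537 in replicate 2 (SD, n = 4 each, exact permutation p = 0.0417, adjusted 0.237). A second GAPDH 3'/5' log2 ratio was lowest in replicate 1, not highest. It averaged -0.064 there, 0.006 in replicate 2 and -0.04 in replicate 3 (exact permutation p = 0.606, adjusted 0.803). ROP10 itself was not analysed here, as the probe annotation pairs no probe set with it.

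Replicate numbers differed in the transcript levels of many genes, and replicate 1 stood furthest from the other two. A probe set was called when its limma p, adjusted by Benjamini-Hochberg over the 15922 tested probe sets, was under 0.05. An F test for any difference between the numbers called 3192 probe sets, or 20% of those tested, and 5667 (35.6%) had an unadjusted p under 0.05. Replicate 1 differed from replicate 2 in 2858 probe sets (18%), of which 1394 were higher (8.76%) and 1464 lower (9.19%) in replicate 1. Replicate 1 differed from replicate 3 in 2461 (15.5%), with 1297 higher (8.15%) and 1164 lower (7.31%) in replicate 1. Replicates 2 and 3 differed in 297 probe sets (1.87%), with 169 higher (1.06%) and 128 lower (0.804%) in replicate 2. At a minimum of 2-fold there were 292, 218 and 80 calls for these 3 pairs.

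Over all tested probe sets, group means accounted for 53.8% of the sum of squares, the replicate number for 26.9% and the remainder for 19.3%. Around the group means the number therefore carried 58.2% of the spread with 2 of the 8 degrees of freedom. This share was 71% in the 6 rop10-1 arrays and 81.7% in the 6 Ws arrays, and 65.8% in the 6 ABA arrays and 73.6% in the 6 mock arrays, each with 2 of 4 degrees of freedom. Deviations from the group means correlated across probe sets at r = 0.215 to 0.711 between arrays of the same number. Between arrays of different numbers and different groups they correlated at -0.475 to 0.11. Removing the group means ties the arrays of a group, so positive values within numbers push those between numbers down. Among the arrays of other groups, each of the 12 arrays was most like an array of its own number. Within a number, arrays of the same genotype had a median r of 0.538 and arrays of the same treatment one of 0.411. Arrays of a number that shared neither had a median r of 0.423. Probe sets are not independent replicates, so these correlations carry no p-value.

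**Figure D1:**
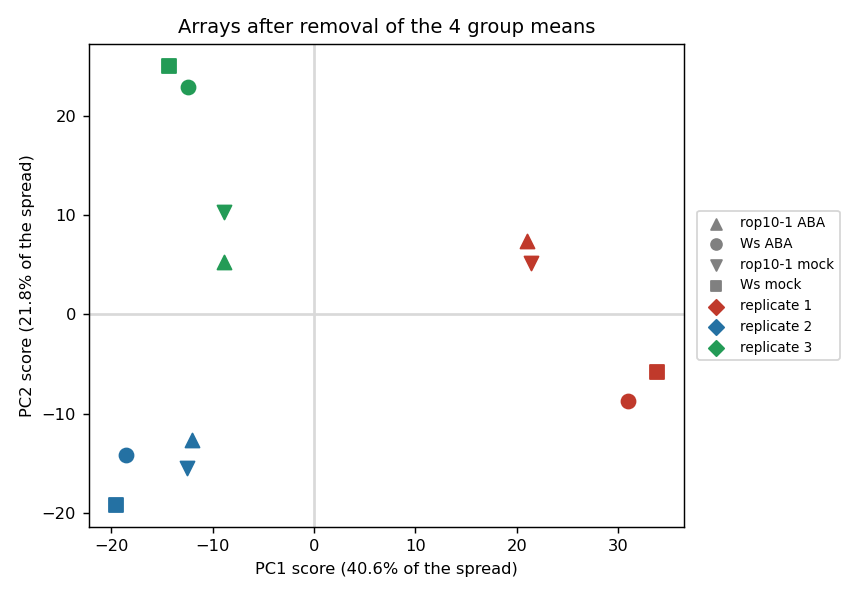
Scores of the 12 arrays on the first 2 principal components (arbitrary units) after the 4 group means were removed, with colour for the replicate number and marker shape for the group. All replicate 1 arrays lie at PC1 scores of 20.99 to 33.86 and all others below 0, and PC2 places replicate 2 below 0 and replicate 3 above it.

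In the plot of principal component scores, the first component held 40.6% of the spread and the second 21.8%. On the first, replicate 1 scored 20.99 in rop10-1 ABA, 30.96 in Ws ABA, 21.44 in rop10-1 mock and 33.86 in Ws mock. Within replicate 1 both rop10-1 arrays thus lay nearer to the other numbers than both Ws arrays did, whatever the treatment.

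A probe set was counted as set apart in a number when that number differed from both others in the same direction, each at an adjusted p under 0.05. Replicate 1 set apart 1466 probe sets (9.21%), with 775 higher (4.87%) and 691 lower (4.34%). Replicate 2 set apart 177 (1.11%), with 121 higher (0.76%) and 56 lower (0.352%), and replicate 3 set apart 120 (0.754%), with 64 higher (0.402%) and 56 lower (0.352%). In replicate 1, 1409 of the 1466 were the highest or the lowest of the 3 arrays in all 4 groups in the direction of the call, and 19.3% of all tested probe sets had replicate 1 as such an extreme. The matching counts were 172 of 177 in replicate 2 (10.2% of all) and 117 of 120 in replicate 3 (8.36% of all). At 2-fold or more from both others, 97 probe sets were higher and 15 lower in replicate 1, against 26 and 15 in replicate 2 and 9 and 5 in replicate 3.

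**Figure D2:**
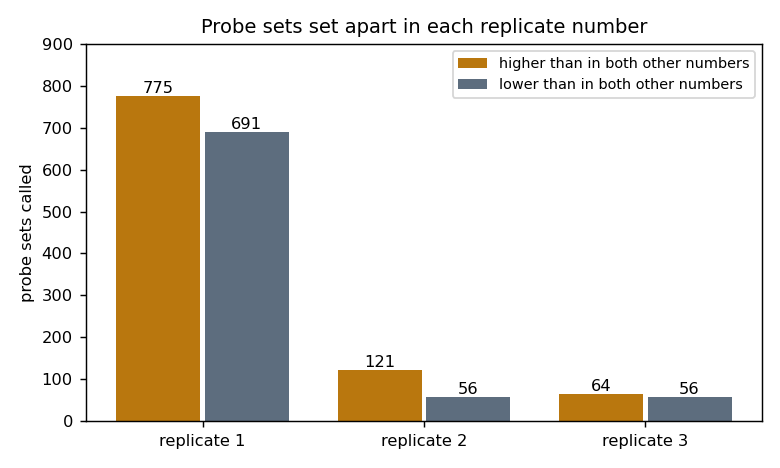
Number of probe sets (of 15922 tested) set apart in each replicate number, with bars for those higher and those lower than in both other numbers. Replicate 1 has 775 higher and 691 lower, replicate 2 has 121 and 56, and replicate 3 has 64 and 56.

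The balance of higher and lower calls in replicate 1 moved with the scaling. With each array centred on its median, 589 were higher and 869 lower in replicate 1, and with quantile normalization 760 and 783. The same centring gave 1088 higher and 1751 lower for replicate 1 minus 2, and 959 and 1418 for replicate 1 minus 3. The share of probe sets called grew with the signal, being 10.1%, 16.5%, 21.9% and 31.7% over 4 bins of rising mean signal. In the brightest bin, replicate 1 had 260 probe sets higher and 387 lower, and in the dimmest it had 126 higher and 44 lower. Neither scaling moved the median of all probe sets by more than 0.1 on the log2 scale.

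The number of probe sets set apart in replicate 1 was 687 without Ws mock 1, 884 without Ws ABA 1, 917 without Ws mock 3, 926 without Ws ABA 3 and 966 without Ws mock 2. It was 1024 to 1547 without any 1 of the rop10-1 arrays. Without Ws mock 1 the F test made 1736 calls, replicate 1 minus 2 made 1768 and replicate 1 minus 3 made 1046. Replicate 1 minus 2 made 1714 without Ws mock 2, and replicate 1 minus 3 made 1210 without Ws mock 3, 1241 without Ws ABA 3 and 1353 without Ws ABA 1. The 297 calls between replicates 2 and 3 became 119 without Ws ABA 3, 125 without Ws mock 2, 135 without rop10-1 mock 2, 140 without Ws ABA 2, 151 without Ws mock 3 and 163 without rop10-1 mock 3. Those same 6 omissions left 79, 75, 76, 91, 94 and 95 probe sets set apart in replicate 2, and 43, 57, 67, 62, 56 and 74 in replicate 3.

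The number differences could be compared between sets of 6 arrays that share no array. In the 6 Ws arrays alone, 2439 probe sets were called for replicate 1 minus 2, and 2122 of them had the same sign in the 6 rop10-1 arrays. Of all tested probe sets, 64.5% had the same sign in both genotypes. The rop10-1 arrays called 1184, of which 698 were called in both, 693 with the same sign. These 698 are 59% of the rop10-1 calls and 28.6% of the Ws calls, and the differences correlated across probe sets at r = 0.585. For replicate 1 minus 3, the 437 rop10-1 calls and 2847 Ws calls shared 307, and for replicate 2 minus 3, the 99 and 549 calls shared 57. Between treatments, 109 probe sets were called for replicate 1 minus 2 in the 6 ABA arrays and 1201 in the 6 mock arrays, and 96 were called in both, all with the same sign. Of all tested probe sets, 71.9% had the same sign in both treatments.

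The largest differences in replicate 1 were higher levels of genes such as a chitinase, a pathogenesis-related protein, defensins and lipid-transfer-like proteins. AT2G43620, a member of the chitinase family, had signals of 7945 in rop10-1 ABA, 4020 in Ws ABA, 4453 in rop10-1 mock and 4544 in Ws mock of replicate 1. In the same order it had 626.2, 857.9, 459.4 and 519.6 in replicate 2, and 1204, 709, 782.8 and 651.6 in replicate 3. The lowest array of replicate 1 was more than 3 times the highest of the others. On the log2(signal + 16) scale, replicate 1 was higher by 3.04 ± 0.18 than replicate 2 and by 2.61 ± 0.18 than replicate 3 (limma, ± SE, adjusted p = 8.29e-06 and 3.11e-05).

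AT4G33720, of the pathogenesis-related protein 1 family, had 574.4, 274.7, 577.1 and 473.7 in replicate 1, again in the order rop10-1 ABA, Ws ABA, rop10-1 mock and Ws mock, which is kept below. It had 11.8, 72.8, 93 and 84.1 in replicate 2 and 40.7, 4.7, 155.1 and 70 in replicate 3. No array of the other numbers reached the lowest of replicate 1, and the log2 differences were 2.71 ± 0.43 against replicate 2 and 2.87 ± 0.43 against replicate 3 (limma, adjusted p = 0.00166 and 0.00168).

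The defensins PDF1.2 and PDF1.2b, textbook outputs of jasmonate and ethylene signalling, were both set apart as higher in replicate 1. PDF1.2 had 271.5, 405.6, 281.8 and 499.1 in replicate 1, against 41.7, 80.1, 64.1 and 121.5 in replicate 2 and 48.7, 34.3, 79.5 and 76 in replicate 3. Both rop10-1 arrays were below both Ws arrays in replicate 1, and all 4 were above every array of the other numbers. The log2 differences were 2.06 against replicate 2 and 2.34 against replicate 3 (limma, adjusted p = 0.000122 and 6.07e-05). PDF1.2b averaged 760.2 ± 218 in replicate 1, against 179.8 ± 52.4 in replicate 2 and 176.3 ± 26.6 in replicate 3 (signal, SD, n = 4). Its probe set can share probes with similar genes, so the levels of these 2 close relatives are not independent. They were the only jasmonate genes tested of 33 listed, 4 of which the probe table named.

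Lipid-transfer-like AT4G22470 and AT4G12500, of the same protein family, averaged 3794 ± 1000 and 3232 ± 1110 in replicate 1. In replicate 2 they averaged 478.6 ± 46.8 and 623.4 ± 144, and in replicate 3 646.8 ± 320 and 861 ± 128 (signal, SD, n = 4 each). SWEET10, a sugar transporter, averaged 669.5 ± 324 in replicate 1, against 94.8 ± 28 in replicate 2 and 113.2 ± 26.7 in replicate 3. Its 4 signals in replicate 1 were 330, 796, 492.8 and 1059.3, the rop10-1 arrays again below the Ws arrays. For these 3 genes replicate 1 did not overlap with any other array, and the smaller of the 2 log2 differences was 2.60, 1.84 and 2.30.

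The other named genes higher in replicate 1 were AT5G55050, a GDSL-type lipase, AT4G36700, a cupin, and AT1G57630, a TIR-domain protein. AT4G36700 separated all 3 numbers, at 407.1, 659.9, 431.5 and 183.6 in replicate 1, 107, 75.3, 115.9 and 84.2 in replicate 2, and 38.2, 19.3, 9.5 and 5.6 in replicate 3. AT1G57630 was near the threshold, with an adjusted p of 0.05 against replicate 2 after rounding, and kept its call in 3 of 12 fits with 1 array left out. In replicate 3 it had 596.4 in rop10-1 ABA, against 14.1, 20.3 and 14.9 in the other arrays of that number. PRX52 and Prx37, class III peroxidases of the cell wall, were also set apart as higher in replicate 1, by at least 0.95 and 0.53 on the log2 scale. Of 5 tested peroxidase genes 3 passed the F test, beside 20% of all tested probe sets.

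Genes lower in replicate 1 showed smaller differences than those higher. RR16, a type-A response regulator that cytokinin induces, had 218.1, 123.4, 236 and 117 in replicate 1, against 489.2, 716.5, 536.9 and 518.3 in replicate 2 and 449.4, 424.6, 733.4 and 495.6 in replicate 3. All arrays of replicate 1 were below all others, and both Ws arrays were below both rop10-1 arrays. For RR16 the log2 difference was -1.66 ± 0.20 in replicate 1 minus 2 and -1.54 ± 0.20 in replicate 1 minus 3 (limma, ± SE, adjusted p = 0.000352 and 0.000826).

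AT1G17960, a threonyl-tRNA synthetase gene, averaged 205 ± 74.4 in replicate 1, against 907.5 ± 371 in replicate 2 and 526.6 ± 256 in replicate 3. AT2G21640, a marker of oxidative stress, averaged 291.5 ± 111 in replicate 1, against 1382 ± 352 and 864.8 ± 697 in replicates 2 and 3. AT1G15250, ribosomal protein L37 of the cytosol, averaged 218.5 ± 117 in replicate 1, against 605 ± 186 and 451.3 ± 193. AT1G29660, another GDSL-type lipase, had 577.1 ± 183 in replicate 1, against 1319 ± 321 and 1338 ± 385 (signals, SD, n = 4 each). AT2G21640 overlapped, since Ws ABA 3 had 302.2 and Ws mock 3 had 325.4, within the range of 170.7 to 394.1 seen in replicate 1, and its call was lost without Ws mock 1 or rop10-1 mock 3. AT1G15250 and AT1G29660 overlapped as well, through Ws ABA 3 at 203.4 and rop10-1 ABA 3 at 783.8. The remaining 5 genes named as lower, AT2G03080, AT3G18510, AT5G57170, AT1G48570 and AT1G21520, differed from both others by at least 0.96 in size on the log2 scale. AT1G21520 lost its call without rop10-1 mock 1, 2 or 3 or rop10-1 ABA 3, and AT3G18510 lost it without mock 1 of either genotype, Ws mock 3 or rop10-1 mock 2. The other genes named for replicate 1, apart from AT1G57630, kept their call with each array left out in turn, which makes 16 of 20.

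**Figure D3:**
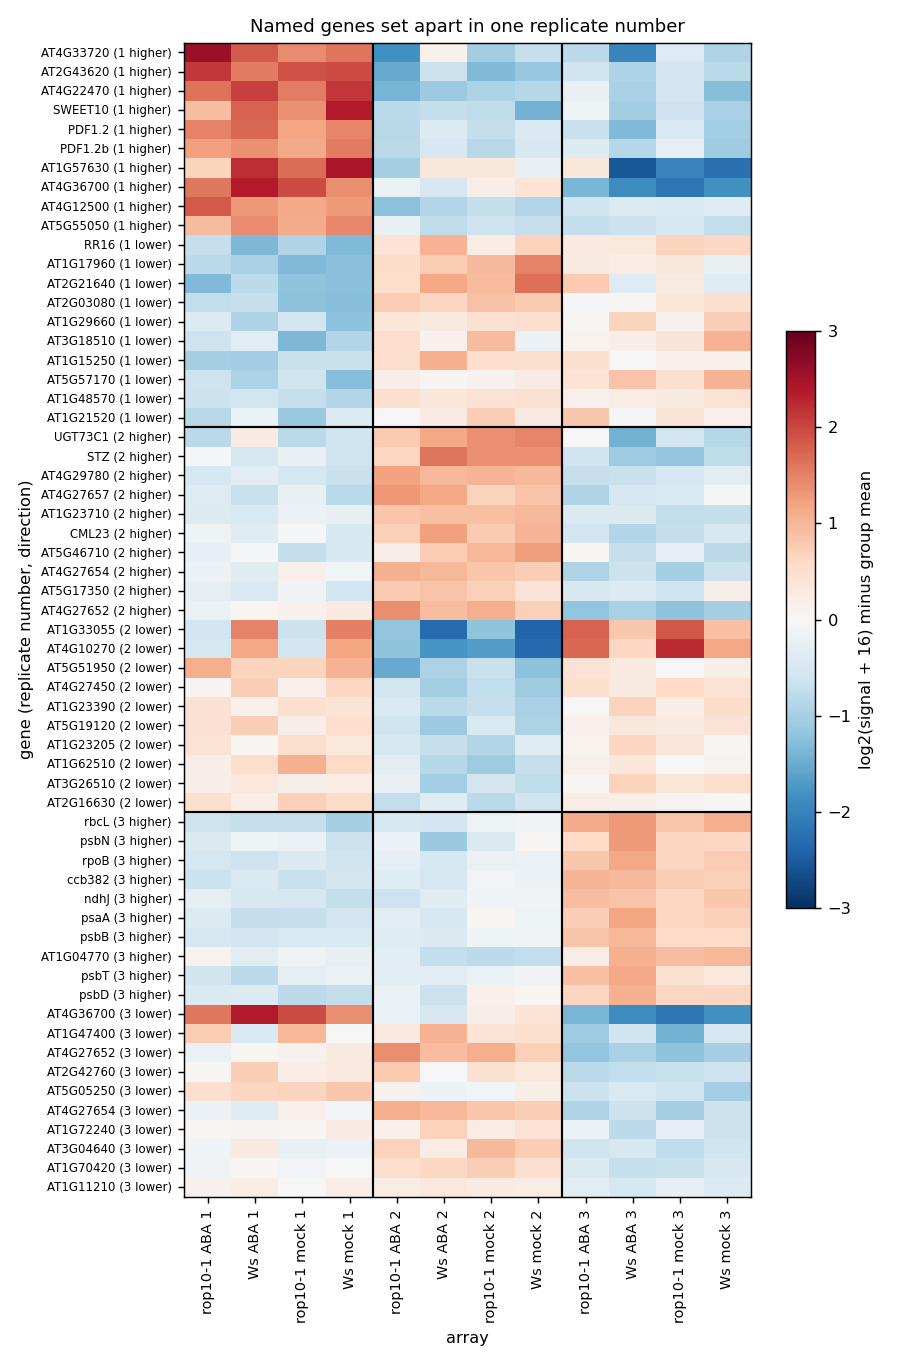
Deviation of log2(signal + 16) from the group mean, by array (columns, in blocks of replicate 1, 2 and 3) for the 10 genes named as higher and the 10 named as lower in each number (rows). Each block of 20 genes shows its colour in all 4 arrays of its own number, for example red for PDF1.2 in replicate 1 and blue for RR16. The choice of genes extreme in all 4 groups fixes this pattern.

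Replicate 2 was marked by higher levels of rapid stress genes. STZ, a zinc finger repressor induced by cold, salt and wounding, had 1798, 1755, 3063 and 2292 in replicate 2. It had 1145, 388.5, 1002 and 572.1 in replicate 1 and 773, 264.4, 512.8 and 507.9 in replicate 3. Every array of replicate 2 was above every other array. STZ in replicate 1 minus replicate 2 was -1.59 ± 0.22, and in replicate 2 minus replicate 3 it was 2.14 ± 0.22 (log2, limma adjusted p = 0.00067 and 0.00037).

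The neighbouring loci AT4G27652, AT4G27654 and AT4G27657 were also higher in replicate 2. AT4G27652 had 1218, 864.3, 1144 and 919.5 in replicate 2, against 392.7, 467.6, 574.5 and 673.1 in replicate 1 and 192.8, 218.7, 217.8 and 270.9 in replicate 3. The 3 numbers did not overlap for this gene, and it was also set apart as lower in replicate 3. AT4G27654 averaged 286.4 ± 36.7 in replicate 2, against 133 ± 19.5 in replicate 1 and 77.03 ± 12.6 in replicate 3, and AT4G27657 averaged 243.6 ± 73.3, against 73.88 ± 19.1 and 77.53 ± 24.9 (signals, SD, n = 4).

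Among the 6 tested touch and rapid stress genes, 4 passed the F test and all 4 were set apart as higher in replicate 2, namely STZ, AT4G27652, AT4G27654 and AR781. The shares over all tested probe sets were 20% for the F test and 0.76% for set apart as higher in replicate 2. WRKY22 and WRKY53, the other tested members, did not pass and were higher in replicate 1 than in replicate 2, by 0.07 and 0.41 on the log2 scale. Over the 6 genes the medians were -0.73 for replicate 1 minus 2 and 1.31 for replicate 2 minus 3 on the log2 scale, against 0.04 and 0.00 over all tested probe sets. Of the 6, 2 were set apart as lower in replicate 3, and 4 were without rop10-1 ABA 2. Under quantile normalization and median centring 4 were higher in replicate 2 as well. The list had 35 genes, of which the probe table named 7.

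Other genes higher in replicate 2 included CML23, a calmodulin-like calcium sensor, at 534.6 ± 145 in replicate 2, against 223.4 ± 57.2 in replicate 1 and 160.4 ± 13.7 in replicate 3. AT4G29780 had 795.8 ± 133, against 256.4 ± 30.4 and 258 ± 84.8, and AT1G23710 had 414.2 ± 59, against 167.9 ± 30.3 and 139.4 ± 34.9. UGT73C1, a glucosyltransferase, had 289.8, 116.5, 252.2 and 128.4 in replicate 2, but its rop10-1 ABA array of replicate 3 had 161.5 and overlapped with them. Its call was lost without Ws mock 2, rop10-1 mock 2 or Ws ABA 2. GSTU25, a tau glutathione transferase, was higher in replicate 2, at 148.9, 169.9, 197.1 and 122.3, against 63.4 to 91.3 in replicate 1 and 56.8 to 115.9 in replicate 3. AT5G46710, a PLATZ-type zinc finger gene, and AT5G17350 completed the named genes, with log2 differences of at least 1.17 and 1.0 in size, and kept their calls in 6 and 7 of 12 fits with 1 array left out.

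Genes lower in replicate 2 were led by hypoxia genes. AT1G33055 had 103.9, 37.7, 138.6 and 53.3 in replicate 2. In replicate 1 it had 166, 728.2, 212.1 and 1026, and in replicate 3 907.4, 452.7, 1300 and 673.5. All 4 arrays of replicate 2 were below all others, yet the rop10-1 arrays of replicate 1 were close to them and the Ws arrays were not. AT4G10270, a wound-responsive family gene induced by low oxygen, had 99.6, 62, 85.1 and 35.8 in replicate 2, against 170.4, 575, 201.4 and 574.6 in replicate 1 and 862.8, 394, 1511 and 568.9 in replicate 3. Replicate 2 was lower on the log2 scale in both genes, with 2.22 ± 0.54 and 2.06 ± 0.47 for replicate 1 minus 2 and -3.12 ± 0.54 and -3.18 ± 0.47 for replicate 2 minus 3 (limma, adjusted p of 0.0152 and 0.011, and of 0.0135 and 0.00519). AT1G33055 lost this call without Ws mock 1, Ws mock 2, Ws ABA 1, Ws ABA 2 or rop10-1 mock 3, and AT4G10270 without Ws mock 2.

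Of the 11 tested core hypoxia genes, out of 29 listed and 15 named on the array, 5 passed the F test and 3 were set apart as lower in replicate 2. The third was AT4G27450, at 660 ± 148 in replicate 2, against 1587 ± 327 in replicate 1 and 1629 ± 348 in replicate 3. Of all tested probe sets, 20% passed the F test and 0.352% were set apart as lower in replicate 2. PDC2, a pyruvate decarboxylase of fermentation, had log2 differences of -0.44, -0.06 and 0.38 for 1 minus 2, 1 minus 3 and 2 minus 3 and did not pass (limma F test, adjusted p = 0.279). CML38, a calmodulin-like gene, did not pass the F test either (adjusted p = 0.0792), though replicate 1 minus 2 alone did at -1.15 (adjusted p = 0.04). Without Ws mock 2, 1 gene was set apart in place of 3. The F test count was 3 without Ws mock 2, rop10-1 mock 2, rop10-1 mock 3 or Ws ABA 2, and also with no filter on low values.

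Further genes lower in replicate 2 were AT5G51950, an oxidoreductase gene, AT1G23390, a kelch-repeat F-box gene, AT5G19120, of the aspartyl protease family, AT1G23205, a pectin methylesterase inhibitor, AT1G62510, a lipid-transfer-like gene, AT3G26510 and AT2G16630. With 1 array left out, AT1G62510 kept its call in 4 of 12 fits, AT1G23205 in 8, AT2G16630 in 10 and AT3G26510 in 11. AT1G23205 lost it without rop10-1 mock 2, rop10-1 mock 3, Ws ABA 2 or Ws ABA 3, AT2G16630 without rop10-1 mock 2 or Ws ABA 3, and AT3G26510 without Ws mock 2. AT1G23390 had 1504, 1488, 1784 and 1651 in replicate 2, below all arrays of the others, which ranged from 2089 to 4746. ATL8, a RING-finger gene of sugar starvation, was set apart both as higher in replicate 1 and as lower in replicate 2, at 380.2, 393.5, 601.4 and 1016 in replicate 1, 168.9, 141.6, 395.4 and 336.5 in replicate 2 and 230.7, 290.6, 504.1 and 651.8 in replicate 3. LHCB4.3, a light-harvesting protein, was lower in replicate 2, with log2 differences of 0.62 for replicate 1 minus 2 and -0.50 for replicate 2 minus 3. AT5G51950 and AT5G19120 also answered to ABA, with log2 changes of 2.44 and -1.04 in the fit with the replicate number.

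Hypoxia genes were among those whose number effect differed between genotypes. A test of replicate number by genotype called 35 probe sets (0.22%), with 2287 at an unadjusted p under 0.05 (14.4%). Of the 11 core hypoxia genes, 4 were among the 35: AT1G33055 (adjusted p = 7.37e-05), AT3G10040 (0.00927), AT4G24110 (0.0264) and AT4G10270 (0.0266, limma throughout). AT3G10040, which encodes a trihelix factor of the hypoxia response, had 30.6 in rop10-1 ABA and 49.8 in rop10-1 mock of replicate 1, against 296.4 in Ws ABA and 402.4 in Ws mock. In replicate 3 the order was turned, with 639.6 and 1051 in the rop10-1 arrays, against 138.6 and 203.2 in the Ws arrays. In replicate 2 all 4 arrays were low, at 32.8 and 8 in rop10-1 and 33.5 and 36.5 in Ws.

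**Figure D4:**
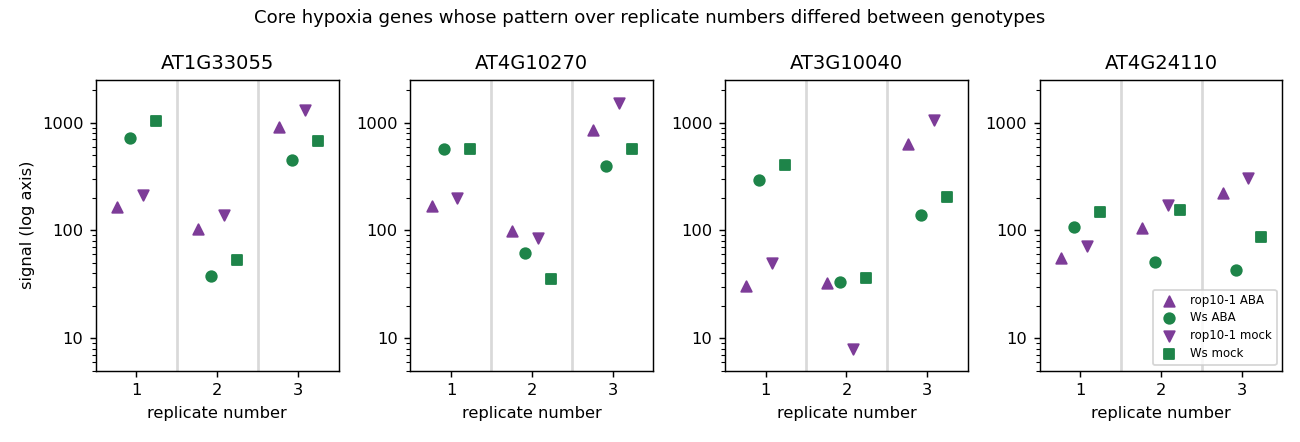
Signal (log axis) of the 4 core hypoxia genes called in the test of replicate number by genotype, for each of the 12 arrays, with colour and marker for the group. In replicate 1 both rop10-1 arrays lie below both Ws arrays and in replicate 3 above them, for all 4 genes.

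Over the 11 hypoxia genes, the mean deviation from the group mean was -0.386 (ABA) and -0.427 (mock) in the rop10-1 arrays of replicate 1, against 0.615 and 0.478 in the Ws arrays. In replicate 3 it was 0.817 and 0.931 in the rop10-1 arrays, against -0.015 and 0.217 in the Ws arrays. Replicate 2 lay at -0.431 and -0.504 in rop10-1 and at -0.6 and -0.695 in Ws. Fitted within each genotype, 3 of the 11 were set apart as lower in replicate 1, 3 as lower in replicate 2 and 4 as higher in replicate 3 in the rop10-1 arrays. In the Ws arrays 2 were higher in replicate 1, 4 lower in replicate 2 and 1 lower in replicate 3. Over all tested probe sets, the matching calls in the rop10-1 arrays numbered 148, 26 and 16. In the Ws arrays they numbered 761, 86 and 159. Since these totals differ between the genotypes, the counts of hypoxia genes cannot be set directly against each other. For the 4 genes called in the test of number by genotype, rop10-1 minus Ws had opposite signs in replicates 1 and 3. That test chose these genes from the same values, so the signs are no separate evidence.

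The other 14 named probe sets of the 35 included ZCF37, AT4G17660 and AT4G30020. On the log2 scale, replicate 1 minus the mean of the others was -0.43 in rop10-1 and -1.52 in Ws for ZCF37 (limma adjusted p = 0.018). It was 0.18 in rop10-1 and 1.52 in Ws for AT4G17660, and 0.23 in rop10-1 and -0.72 in Ws for AT4G30020 (limma adjusted p = 0.0236 for both). CRR42, needed for assembly of the chloroplast NDH complex, had -0.08 in rop10-1 and -1.56 in Ws, and RING1, a ubiquitin ligase gene, had 0.09 and 1.15. The count of 35 was 1 with no filter on low values, 7 without the intensity trend, 63 with median centring and 89 with array weights. Leaving out 1 array gave 4 without rop10-1 mock 1, 5 without rop10-1 ABA 1, 7 without Ws ABA 3, 8 without rop10-1 ABA 3, 12 without Ws mock 1, 14 without Ws ABA 1, 15 without Ws mock 3, 19 without Ws mock 2, 64 without rop10-1 ABA 2 and 167 without rop10-1 mock 2. AT1G33055 was called in all of these fits, and AT3G10040 in all but those with no low filter (adjusted p = 0.128), without Ws ABA 3 (0.0585) and without rop10-1 ABA 1 (0.068). With no low filter AT1G33055 was the only call, so AT4G24110 and AT4G10270 were not called there.

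Among the 1466 probe sets set apart in replicate 1, the median size of the difference between replicate 1 and the mean of the others was 0.495 in rop10-1 and 0.653 in Ws on the log2 scale. It was larger in Ws for 1070 of them (73%), and the sign was the same in both genotypes for all 1466, as the choice of these probe sets largely fixes. Differences were larger in Ws over all tested probe sets too. The median size of replicate 1 minus 2 was 0.189 in rop10-1 and 0.245 in Ws, and that of replicate 1 minus 3 was 0.163 and 0.246. Between treatments the medians over the 1466 were 0.571 with ABA and 0.577 in mock. The test of replicate number by ABA called 1 probe set (0.00628%), which has no single gene in the probe table, and 457 at an unadjusted p under 0.05 (2.87%). With 1 array left out it called 0 to 2. Among named genes the smallest unadjusted p was that of petG, a plastid cytochrome b6f gene, whose replicate 1 minus the mean of the others was -0.33 with ABA and -1.72 in mock (limma adjusted p = 0.996).

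Replicate 3 was marked by higher signals of organelle-encoded genes. rbcL, the chloroplast gene of the large Rubisco subunit, had 619.9, 791.3, 651.1 and 753.3 in replicate 3. It had 175.6, 192.4, 217.3 and 166.9 in replicate 1 and 196.9, 208.6, 324.7 and 322.2 in replicate 2. The lowest array of replicate 3 was close to 2 times the highest of the others. On the log2 scale replicate 1 minus replicate 3 was -1.82 and replicate 2 minus replicate 3 was -1.39, each ± 0.15 (limma, adjusted p = 4.79e-05 and 0.000474).

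psaA, a core subunit of photosystem I, had 3211, 4014, 2706 and 3731 in replicate 3, against 1427, 1069, 1073 and 1513 in replicate 1 and 1519, 1256, 1819 and 2033 in replicate 2. psbB, of photosystem II, averaged 1665 ± 235 in replicate 3, against 693 ± 97.8 in replicate 1 and 823.4 ± 152 in replicate 2 (signal, SD, n = 4). ndhJ, of the chloroplast NDH complex, averaged 365.7 ± 36.2, against 138.4 ± 12.1 and 163.8 ± 35.4, and rpoB, of the plastid RNA polymerase, averaged 382.3 ± 73.3, against 136.5 ± 32 and 166.6 ± 44.5. In each of these genes replicate 3 did not overlap with the other numbers, and the values of replicates 1 and 2 overlapped with each other.

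Of 66 tested plastid-encoded genes, 51 passed the F test, 28 were set apart as higher in replicate 3 and 20 as lower in replicate 1, and 0 were set apart in the opposite directions. The shares of all tested probe sets were 20% for the F test, 0.402% for higher in replicate 3 and 4.34% for lower in replicate 1. All 66 were lower in replicate 1 than in replicate 3, whereas 1 was higher under quantile normalization and up to 2 were with 1 array left out. The median log2 difference was -0.29 for replicate 1 minus 2, -0.83 for 1 minus 3 and -0.48 for 2 minus 3, against 0.04, 0.03 and 0.00 over all probe sets. The numbers thus fell in the order 1, 2, 3 in the medians, with replicate 3 the highest. The mean deviation of the list was 0.309 to 0.593 in the arrays of replicate 3, -0.195 to 0.08 in replicate 2 and -0.398 to -0.287 in replicate 1, without overlap between numbers. It was highest in Ws ABA 3.

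By kind of plastid gene, with no test between kinds, the 5 photosystem I genes had a median log2 difference of -1.19 for replicate 1 minus 3, with 4 set apart as higher in replicate 3. The 15 photosystem II genes had -0.76 with 8 set apart, the 9 NDH genes -0.89 with 4, the 6 ATP synthase genes -1.0 with 3, the 5 cytochrome b6f genes -0.70 with 1 and the 4 RNA polymerase genes -1.03 with 3. The 14 ribosomal protein genes had -0.38 with 1 set apart, and 7 of them passed the F test. Members of a kind varied widely, as with psaC at -1.47 and psaJ at -0.07 in photosystem I. psbA, the D1 protein gene, differed by -1.31 between replicates 1 and 3 and atpI by -1.30, whereas psbL and rps3 differed by -0.03 and -0.01 and did not pass. psbN and psbT, both higher in replicate 3, lie next to each other on the plastid genome and kept their calls in 6 of 12 fits with 1 array left out.

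**Figure D5:**
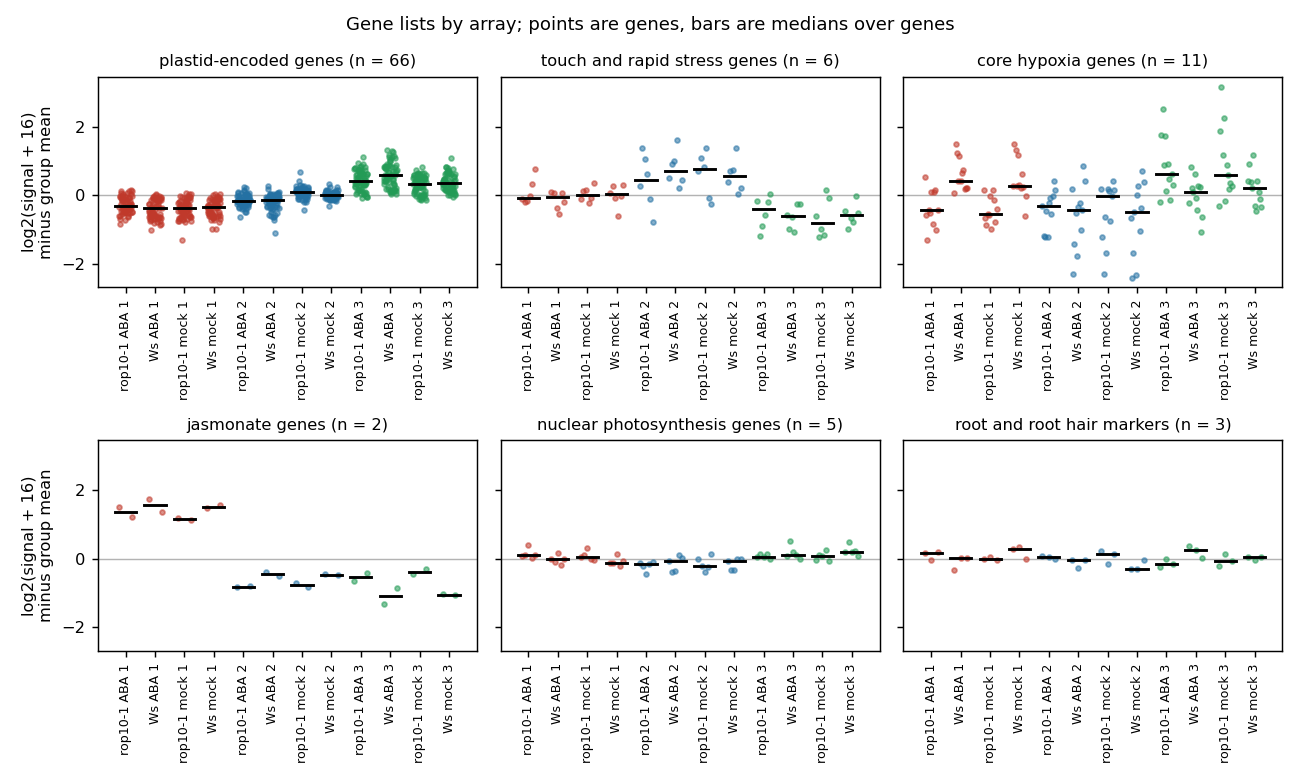
Deviation of log2(signal + 16) from the group mean by array, with a point for every tested gene of 6 lists and a bar for the median over genes. Plastid-encoded genes are lowest in replicate 1 and highest in replicate 3 by the median. Of the 6 touch and rapid stress genes 4 are highest in replicate 2, and core hypoxia genes fall apart by genotype in replicates 1 and 3.

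Of 36 listed nuclear genes of photosynthesis, the probe table named 5, and all 5 were tested. The F test called 2 of them, LHCB4.2 and LHCB4.3, beside 20% of all tested probe sets. Over the 5 genes the median log2 difference was 0.06 for replicate 1 minus 2, -0.08 for 1 minus 3 and -0.25 for 2 minus 3, where LHCB4.2 (-0.60) and LHCB4.3 (-0.50) were called. Their mean deviation from the group means averaged 0.134 in replicate 3, against 0.027 in replicate 1 and -0.161 in replicate 2. RCA had 13139, 12974, 11907 and 14335 in replicate 3, against 14030, 12970, 12105 and 13030 in replicate 1, and was not called (F test adjusted p = 0.993). Of 11 mitochondrial genes named on the array only 3 were tested, and 2 of these were set apart as higher in replicate 3. Of all tested probe sets, 0.402% were. cox1, of cytochrome oxidase, had 250.2, 255.2, 212.6 and 217 in replicate 3, against 137.3 to 173.1 over all other arrays. nad4, of respiratory complex I, differed by -0.61 (1 minus 3) and -0.48 (2 minus 3), and nad1, the remaining gene of the 3 tested in the mitochondrial list, did not pass (F test adjusted p = 0.643). ccb382, a mitochondrial gene of cytochrome c assembly that the list did not hold, was named because it was set apart in replicate 3. It averaged 1371 ± 241 in replicate 3, against 491.2 ± 59.5 and 613.7 ± 105 in replicates 1 and 2.

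The 25S ribosomal RNA signal, given above, was also highest in replicate 3, and its part in the organelle result was not tested. The count of plastid genes set apart in replicate 3 fell with some single arrays left out. It was 10 without Ws ABA 2, 12 without Ws ABA 3, 14 without Ws mock 2 and 16 without rop10-1 ABA 2. With no filter on low values it was 14. Over all tested probe sets, calls higher in replicate 3 fell too, from 64 to 30, 22, 29, 42 and 40 in these fits, in that order. The count of plastid genes set apart in replicate 1 was 13 without Ws mock 2. Calls lower in replicate 1 over all tested probe sets went from 691 to 470 in that fit. In the 6 rop10-1 arrays alone 35 of the 66 passed the F test and in the 6 Ws arrays alone 46, with medians of -0.73 and -0.90 for replicate 1 minus 3. Over all tested probe sets the F test called 934 in these rop10-1 arrays and 3213 in these Ws arrays. The counts 35 and 46 therefore do not show a weaker plastid result in rop10-1.

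AT1G04770, a gene induced by sulfur deficiency, was higher in replicate 3 at 222.5, 705.5, 445.5 and 539.9, against 201.6, 254, 202.9 and 220.6 in replicate 1 and 145.7, 192.6, 124.1 and 151.9 in replicate 2. The rop10-1 ABA array of replicate 3 lay within the range of replicate 1. Genes lower in replicate 3 were AT4G36700 and the rapid stress genes AT4G27652 and AT4G27654 above, AT1G47400, of the iron-related IRON MAN peptides, AT2G42760, AT5G05250, AT1G72240, AT3G04640, AT1G70420 and AT1G11210. AT2G42760 averaged 150.4 ± 30.2 in replicate 3, against 321 ± 44.6 in replicate 1 and 350 ± 104 in replicate 2, and lost its call without rop10-1 mock 2. AT1G47400 had 202.1, 145.2, 153 and 149.6 in replicate 3, overlapping with Ws ABA 1 at 161.7, and kept its call in 3 of 12 fits with 1 array left out, as did AT5G05250, AT1G72240 and AT3G04640. The last 5 named differed from both others by 0.52 to 0.69 in size on the log2 scale. Of the 20 genes named for replicate 3, 12 kept their call with each array left out, and of those for replicate 2, 11 did.

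The other gene lists were small on this probe table and gave scattered calls, which are read against the 20% of all tested probe sets that passed the F test. For ABA-induced markers 3 of 6 passed: COR15A, a cold- and ABA-induced chloroplast protein, was lower in replicate 1, with log2 differences of -0.71 (1 minus 2) and -0.51 (1 minus 3), and COR47, a dehydrin, and AT3G02480 passed with no number set apart. Of 10 tau glutathione transferases 5 passed, of 11 cytochrome P450 genes 4, of 10 expansins 2, of 6 xyloglucan endotransglucosylases 2 and of 10 autophagy genes 2. DFR, of anthocyanin synthesis, was lower in replicate 1 (1 of 5 flavonoid genes passed), UGT74B1, of glucosinolate synthesis, was higher there (1 of 3), and so was the heat shock gene AT5G48570 (1 of 5). LBD16 and GH3.3, both auxin-induced, passed out of 3.

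None of 3 root markers and 2 guard cell markers passed the F test in limma at an adjusted p under 0.05. FMA, a guard cell regulator, had an adjusted p of 0.593, PYK10 of 0.72 and the root hair expansins EXPA7 and EXPA18 of 0.287 and 0.979. The sums of the 3 root markers were 12977 to 16530 in replicate 1, 13192 to 14705 in replicate 2 and 12702 to 14928 in replicate 3. WRKY factors (0 of 5), nitrate genes (0 of 2) and the single tested genes for cell division (AUR1), the clock (GI), iron status (PYE), endoplasmic reticulum folding (CRT1b), histones (HIS1-3) and salicylate signalling (SAG101) did not pass either. A p that misses the threshold does not show that levels were equal.

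The replicate number carried enough spread to alter the error of the study's own contrasts. With the number in the fit, the median residual SD of a probe set was 0.174 on the log2 scale, against 0.219 without it, and it was smaller for 74.6% of the probe sets. The median SE of the average ABA response was 0.102 with the number and 0.126 without, with the same fold changes, since every number held all 4 groups. The average ABA response had 4455 calls with the number (28%) and 2475 without it (15.5%). Of the 4455, 1448 also differed between the numbers, which is 32.5% of the ABA list and 45.4% of the number list, beside the 20% of all probe sets that differed between the numbers.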

How the data were processed

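The authors' deposited values are ATH1 probe set intensity on a linear scale. Per the submitters' processing notes GCOS 1.1.1 was used, and its settings are not given in those notes. The 2% trimmed mean of each array lay at about 500, so values were used as deposited. Of 22810 probe sets, 64 were controls, and the probe table gave 13513 a single gene, 503 several and listed none for 8730. Of these, 13454 matched a RefSeq gene table (TAIR10.1), used for names only. No coordinates are given, since no build is named, and no sequences were at hand.

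Values were tested as log2(intensity + 16) in limma 3.58.1 (R 4.3.3), which understates changes of low genes. Controls and the 30% with the lowest mean were left out, leaving 15922. The fit held 4 group means and the replicate number (6 residual degrees of freedom), and eBayes used an intensity trend. Tests were two-sided, and p-values were adjusted by Benjamini-Hochberg. Interactions of number with ABA and with genotype were F tests. Technical measures were compared by exact permutation within groups (1296 arrangements, smallest p 0.00463). Same-number arrays correlated at over 0.1 in all pairs, which is why the numbers were treated as pairing the samples.

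Named genes were, per number, the 10 highest and 10 lowest single-gene probe sets by the smaller of both differences, among those set apart and extreme in all 4 groups; 5 genes per interaction; and up to 4 per list with the smallest p. The numbers compared, gene lists and tests were chosen with earlier results of these data known, and the plastid, mitochondrial and peroxidase lists were rebuilt after the files were seen. The lists of phosphate starvation, light-induced, seed storage, cytosolic ribosomal and lipid-transfer-like genes had no tested member. In 5 simulated runs with 200 of 15922 probe sets changed in replicate 1, 95% of 2-fold and 100% of 4-fold changes were recovered as set apart, with 0.612% of such calls false. Of the F test calls 5.18% were false. The runs drew independent normal noise at the fitted SD, so they do not give the false share of the real calls.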

Additional observations from a re-analysis of the deposited data

Results flagged for a closer look

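Outlying arrays were sought within each number by the gap of the highest or lowest array to its nearest neighbour, as a share of the range of the 4 deviations from the group means. Of 243 groups of 4 arrays, 11 had a share above Dixon's limit for 4 values, and chance alone flags about 1 in 20 groups. Among genes, SWEET10 in replicate 2 was lowest in Ws mock (0.909), AT1G15250 in replicate 2 was highest in Ws ABA (0.958) and rbcL in replicate 1 was lowest in Ws mock (0.833). In replicate 3, psbN (0.955) and psbD (0.954) were both highest in Ws ABA, the array with the highest mean of the plastid genes. By its deviations, AT1G04770 was highest in rop10-1 ABA of replicate 2 (0.854) and lowest in rop10-1 ABA of replicate 3 (0.836). Deviations within a group are tied through its mean, so 1 odd array moves those of the others and these flags are not independent. In signal, AT1G04770 was not highest in rop10-1 ABA of replicate 2, which had 145.7 against 192.6 in Ws ABA of that number. Among technical measures, the ubiquitin 3'/5' ratio was highest in Ws mock of replicate 3 (0.844), its second set was highest in rop10-1 ABA of replicate 1 (0.913), the poly-A spike dap was highest in rop10-1 mock of replicate 1 (0.868) and the spike phe was lowest in rop10-1 mock of replicate 3 (0.961).

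Differences between genotypes in the number effect, tested as an interaction in limma, were 35 probe sets. By adjusted p they were led among named genes by AT1G33055 (7.37e-05), AT3G10040 (0.00927), ZCF37 (0.018), AT4G17660 (0.0236) and AT4G30020 (0.0236). The same test between ABA and mock called 1 probe set.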

How the results depend on the processing

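Of 4086 values of 170 results on single genes and technical measures, 3580 kept their side of the threshold, 482 lost the call, 24 gained one and 0 were counted as reversed. A change of sign was counted only for genes called in the main fit. Technical measures were judged by the threshold alone. Calls were lost mostly with an array left out (214) or with 6 arrays alone (195). With 1 array left out in turn, any difference between the numbers ranged over 1736 to 3138 calls, 1 minus 2 over 1714 to 2784, 1 minus 3 over 1046 to 2691 and 2 minus 3 over 119 to 408. Probe sets set apart ranged over 687 to 1547 in replicate 1, 75 to 236 in replicate 2 and 43 to 151 in replicate 3. Number by genotype ranged over 4 to 167 and number by ABA over 0 to 2, in fits added after the data were seen.

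Fits of 6 rop10-1, ABA or mock arrays alone gave fewer calls. In the order any difference, 1 minus 2, 1 minus 3, 2 minus 3 and set apart in replicates 1, 2 and 3, these were 934, 1184, 437, 99, 314, 64 and 35 in rop10-1, 76, 109, 72, 21, 29, 9 and 5 with ABA and 1157, 1201, 753, 159, 445, 112 and 28 in mock. Ws alone gave 3213, 2439, 2847, 549, 1402, 238 and 264 in that order, more than all 12 arrays except for 1 minus 2 and for replicate 1. A 2-fold minimum left 292, 218 and 80 pairwise calls and 112, 41 and 14 set apart. Array weights gave 472 calls for 2 minus 3, and no low filter left 75 set apart in replicate 3. Number by genotype gave 1 call with no low filter, 63 with median centring, 7 without the intensity trend and 89 with array weights. The number's share of the spread was 56.9% with a pseudocount of 1 and 60% with 64. Without the replicate block, the median residual SD was 0.219 in place of 0.174. The causes were not tested. Dim probe sets and the 8730 with no gene listed limit what could be named.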
